A study of Fragaria vesca with 3 samples.

Results

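This account covers the genes of woodland strawberry (Fragaria vesca) that are described as nucleotide-binding leucine-rich repeat receptors, the intracellular immune receptors of plants, and the peaks of FvSEP3 assigned to them. A gene was included if its deposited description named a disease resistance protein after an Arabidopsis locus (At), RGA, RPM1 or RPP13 and it had a peak in either replicate list. The words gave 144 of the 18238 genes with a peak, and these 144 genes carried 292 of the 41121 peaks. The samples were 2 FvSEP3 immunoprecipitation (IP) replicates and 1 input library, all from genomic DNA of wild-type fruit at 30 days post anthesis. The assay was DNA affinity purification sequencing, in which a transcription factor binds purified DNA fragments that are then sequenced. It measures binding to DNA that has been stripped of chromatin, and no gene expression was measured. The design calls the replicates biological, and nothing else in the labels says what they came from.

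FvSEP3 belongs to the SEPALLATA branch of the MADS-domain transcription factors, which act as dimers and tetramers on DNA and are known for floral organ identity and, in fleshy fruits, for ripening. The receptors are switches with a nucleotide-binding domain in the middle and leucine-rich repeats at the end. They are held inactive until a pathogen effector, or the damage it does to another plant protein, releases them, and activation commonly ends in local cell death. Plant genomes hold many of these genes, often in tandem arrays of close copies. The names used here are the closest described proteins, so a gene "named At4g27220" is a strawberry gene whose best description carries that Arabidopsis locus. No domain or sequence of the strawberry proteins was examined. The 144 genes named 106 distinct protein accessions, and 64 genes shared theirs with at least 1 other gene of the group, up to 5 genes for 1 accession. The labels do not say how reads matching several copies were placed, so values of close copies are uncertain.

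Most of the bound receptor genes fell under a few names. There were 38 genes named At4g27220 and 21 named At4g27190, both receptors of the coiled-coil class. Another 17 were named At5g66900, in Arabidopsis a helper receptor of the NRG1 type that passes on signals from other receptors, and 1 was named At5g66910, its neighbour in Arabidopsis. RPM1, which in Arabidopsis senses bacterial attack on the RIN4 protein, gave 17 names. The RGA names, after genes related to the potato late blight receptors, numbered 17, with 8 for RGA3, 6 for RGA4, 2 for RGA2 and 1 for RGA1. RPP13, an Arabidopsis receptor for downy mildew, also gave 17, with 11 for RPP13-like protein 1, 4 for RPP13-like protein 4 and 2 for RPP13-like protein 3. The other names were At3g14460 with 7 genes, At1g50180 with 6, and At4g11170, At4g19050 and At5g63020 with 1 each.

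**Figure D1:**
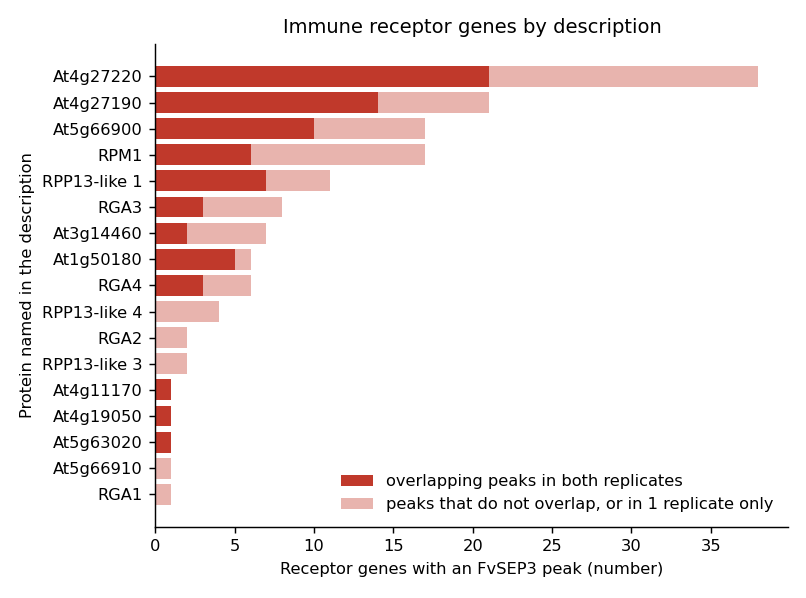
Number of receptor genes with an FvSEP3 peak (horizontal axis) for each protein named in the descriptions (vertical axis). The dark part of each bar counts genes with overlapping peaks in both replicates, and the pale part the other genes. At4g27220 leads with 38 genes, of which 21 had overlapping peaks. None of the 4 genes named RPP13-like protein 4 did, and no gene named RPP13-like protein 3, RGA1, RGA2 or At5g66910.

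Fold enrichment, the signal of a peak over background as deposited by the authors, is used here only to describe and rank peaks within a list. Sequencing depth is unknown, since no counts of reads came with the peaks. Replicate 1 listed 137 receptor peaks on 108 genes, and replicate 2 listed 155 peaks on 119 genes. Both lists named 83 of the 144 genes (57.6%, beside 62.8% of all genes with a peak), 25 genes stood in replicate 1 alone and 36 in replicate 2 alone. Overlapping peaks, meaning at least 1 bp shared by peaks assigned to the same gene in both lists, were found for 74 of 144 receptor genes (51.4%, 95% Wilson interval 43.3 to 59.4, counting error only). Among all genes with a peak the share was 58.6%, inside that interval. Below, a gene is called bound in both replicates only if it had such overlapping peaks. Genes with peaks in both lists that do not overlap are not counted as bound in both. Of the replicate 1 receptor peaks, 89 of 137 (65.0%) overlapped a replicate 2 peak of any gene, beside 70.5% of all replicate 1 peaks. In replicate 2 it was 87 of 155 (56.1%), beside 62% of all peaks. The Wilson interval held the share of all peaks in each list, with bounds of 56.7 and 72.4% in replicate 1 and 48.3 and 63.7% in replicate 2.

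Genes bound in both replicates were also counted by name, to be read beside the 58.6% of all genes with a peak. The numbers per name are small. Genes named At1g50180 had overlapping peaks in 5 of 6 cases (83.3%), At4g27190 in 14 of 21 (66.7%) and RPP13-like protein 1 in 7 of 11 (63.6%). Those named At5g66900 had them in 10 of 17 (58.8%) and At4g27220 in 21 of 38 (55.3%). Lower counts were seen for RPM1, with 6 of 17 (35.3%), and for the RGA names together, also with 6 of 17. The RPP13 names together had 7 of 17 (41.2%), all 7 of them RPP13-like protein 1. At3g14460 had 2 of 7 (28.6%). No gene named RPP13-like protein 3 or 4, RGA1, RGA2 or At5g66910 had overlapping peaks. The 1 gene each named At4g11170, At4g19050 and At5g63020 had them. These differences were not tested.

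Receptor peaks had median values close to those of all peaks. Their median fold enrichment was 3.002 in replicate 1, with a range of 2.06 to 5.37, beside a median of 3.05 for all peaks of that list. In replicate 2 the median was 2.91, with a range of 2.09 to 6.03, beside 3.004 for all peaks. Receptor peaks that overlapped a same-gene peak of the other list had medians of 2.98 in replicate 1 and 2.97 in replicate 2. For all such peaks the medians were 3.12 and 3.12. Receptor peaks without such an overlap had 3.07 and 2.88, against 2.90 and 2.85. These differences were not tested. Fold enrichment reached 4 in 11 of 137 receptor peaks in replicate 1 (8.03%, beside 6.71% of all peaks) and in 11 of 155 in replicate 2 (7.10%, beside 5.93%). The median peak length was 299 and 300 bp in replicates 1 and 2, against 303 and 306 bp for all peaks. At least 4 peaks in the lists together were assigned to 14 of 144 receptor genes (9.72%, Wilson interval 5.88 to 15.7), beside 15.6% of all genes.

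Across the 87 pairs of overlapping receptor peaks, the median absolute difference in fold enrichment between replicates was 0.332. The values lay within 1.25 times of each other in 73 pairs, or 83.9%, against 82.1% of all pairs. Replicate 1 was higher in 45 pairs and replicate 2 in 42. Spearman's rho was 0.590 and Pearson's r was 0.665 over these 87 pairs, which share 2 libraries and are not independent replicates. The most unequal pair, 1.93 apart, lay in the promoter of FvH4_3g44570, named At4g27190, with 2.86 in replicate 1 and 4.79 in replicate 2.

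**Figure D2:**
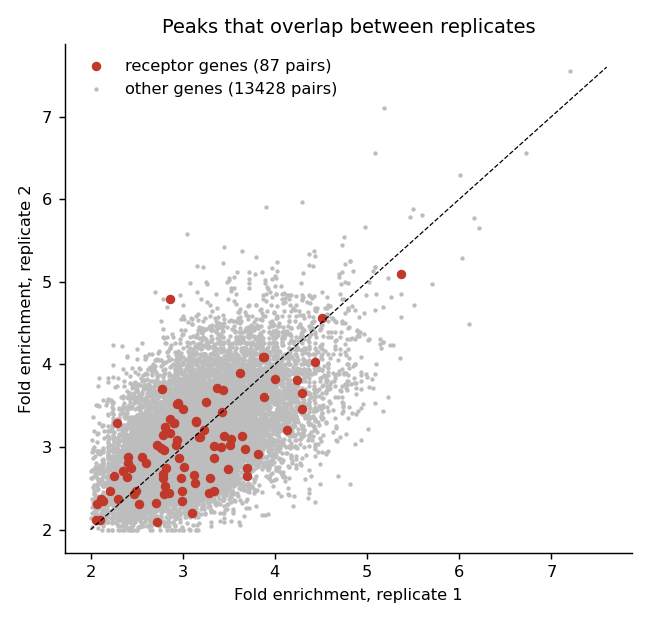
Fold enrichment in replicate 1 (horizontal axis) against replicate 2 (vertical axis) for peaks that overlap between the lists and are assigned to the same gene. Red points are the 87 receptor pairs, grey points are pairs of other genes, and the dashed line marks equal values. Receptor pairs lie within the cloud of the other genes, with FvH4_3g45642 highest at 5.37 and 5.10.

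The highest reproducible receptor peak lay upstream of FvH4_3g45642, named At4g27220. It spanned chromosome 3 from 37832203 to 37832465 in replicate 1 and from 37831842 to 37832449 in replicate 2, at 1435 and 1431 bp upstream of the gene start. Its fold enrichment of 5.37 ranked 14 among all 19298 peaks of replicate 1, and 5.10 ranked 48 among the 21823 of replicate 2. The intervals shared less than 50% of the longer peak, and the gene was not kept with reciprocal overlap of 50% or in the authors' merged list. FvH4_3g45680, of the same name and in the same cluster of genes, followed with a peak in exon 4 of 6 on chromosome 3 from 37864940 to 37865171. It had 4.51 in replicate 1 and 4.56 in replicate 2. The next was FvH4_5g02660, named At4g27190, with a peak in its first intron on chromosome 5 from 1596404 to 1596684 at 4.44 and 4.04.

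FvH4_4g29310, named RPP13-like protein 1, had the best ranked shared peak of its name, 3526 bp downstream of the gene start in an intergenic position, with 3.89 in replicate 1 and 4.09 in replicate 2. A pair of genes named At1g50180, which in Arabidopsis is the receptor CAR1 for bacterial effectors, also ranked high. FvH4_4g22940 was bound in its promoter, on chromosome 4 from 25578606 to 25578854, with 3.87 and 4.08. FvH4_7g33440 had a peak in exon 1 of 3 on chromosome 7 from 23795652 to 23795892, with 4.01 and 3.82. Of the 3 helper-named genes on chromosome 5, all bound in both lists, 2 ranked among the best 15. FvH4_5g11130, named At5g66900, had an intergenic peak 2632 bp upstream of its start at 4.30 and 3.65. FvH4_5g11231, of the same name, had a peak only 50 bp upstream of its start at 3.62 and 3.899 and another 3308 bp upstream at 3.42 and 3.43.

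The remaining best ranked genes reached 3.25 to 4.30 in replicate 1 and 3.21 to 3.81 in replicate 2. They were FvH4_1g07760 and FvH4_7g12671 (At4g27190), FvH4_3g45643 and FvH4_2g05590 (At4g27220), FvH4_7g20580 (RGA4), FvH4_2g27370 (At4g11170) and FvH4_3g11504 (RPM1). Behind FvH4_3g11504 the next RPM1 gene was FvH4_3g17401, with a peak in its only exon at 3.45 in replicate 1 and 3.13 in replicate 2. The next RGA gene was FvH4_6g29520 at 3.23 and 3.21, and the next RPP13 gene was FvH4_7g19710 at 3.29 and 2.62.

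Some strong peaks stood in 1 list only, and these genes were chosen after their values were seen. The highest receptor peak of all lay in the 5' UTR of FvH4_3g45711, named At4g27220, on chromosome 3 from 37916091 to 37916312, 119 bp inside the gene. Its enrichment was 6.03 in replicate 2 with a −log10 p of 42.1 and ranked 6 in that list. Replicate 1 had no peak there, and its nearest peak was 14305 bp away. Of the 8284 peaks of replicate 2 without a counterpart, 0 had a higher fold enrichment. FvH4_3g43950 (At4g27220) had 4.22 in replicate 1 alone, in an intergenic position, and FvH4_7g31110 (At4g27220) had 4.20 in its 5' UTR in replicate 1 alone. FvH4_3g18165, named RPP13-like protein 3, had 4.22 in its promoter in replicate 2 alone. Without the read signal itself it is unknown whether such sites fell just short of the caller's limit in the other replicate.

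The genes named RPP13-like protein 4, in Arabidopsis the receptor ZAR1 that assembles into a membrane channel when activated, were without a reproducible peak, and were likewise chosen after their values were seen. They are only 4 genes, to be read beside the 58.6% of all genes with a peak that had overlapping peaks. Names with fewer genes, RPP13-like protein 3, RGA1, RGA2 and At5g66910, had none either. FvH4_1g12710 had an exon peak of 2.14 in replicate 1 and a promoter peak of 3.07 in replicate 2, at different positions. FvH4_6g22160 had a peak in exon 2 of 2 in each list, at 3.34 and 3.15, but the intervals did not overlap. FvH4_6g29201 had an intergenic peak of 3.45 in replicate 1 alone, and FvH4_3g00820 had a 5' UTR peak of 3.39 in replicate 2 alone.

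By location, receptor peaks lay more often in exons and less often in introns than peaks in general. Exons held 45 of 137 receptor peaks in replicate 1 and 58 of 155 in replicate 2, or 35.1% ± 3.23 (SD, n = 2), against 24.97% ± 0.975 of all peaks. Introns held 11 and 11 peaks, or 7.56% ± 0.659 (SD, n = 2), against 18.2% ± 0.439 of all peaks. For exons the Wilson interval of the receptor share was 25.5 to 41.1% in replicate 1 and 30.2 to 45.3% in replicate 2. For introns it was 4.54 to 13.8% and 4.01 to 12.3%. With both lists pooled it was 30.0 to 40.9% for exons and 5.03 to 11.1% for introns. The pooled intervals are too narrow, since many sites count once in each list. A same-gene peak of the other list overlapped 87 of 137 receptor peaks in replicate 1 and 86 of 155 in replicate 2. The 5' UTR share was 5.14% ± 0.0366 against 8.77% ± 0.383, and the 3' UTR share 2.71% ± 0.733 against 4.23% ± 0.0491. Promoters held 37 peaks in replicate 1 and 32 in replicate 2, or 23.8% ± 4.499, against 20.8% ± 0.0700. Intergenic peaks were 25.3% ± 0.699 against 22.2% ± 0.0216. These differences were not tested. The number of exons and introns of all receptor genes was not analysed here, so the shares are not set against the sequence each class offers. Among the 65 receptor genes with a peak in an exon of their own, the annotated number of exons had a median of 4 (quartiles 3 and 5), against 3 (quartiles 2 and 7) for 6075 such genes overall. Of these 65 genes, 48 had up to 4 exons (73.8%, against 61.7% of the 6075).

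**Figure D3:**
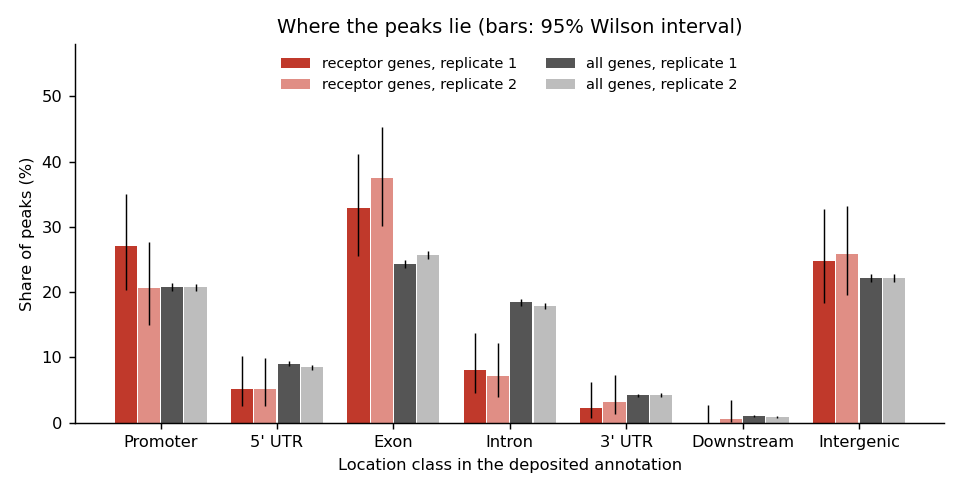
Share of peaks in each location class of the deposited annotation (vertical axis, percent), with receptor genes in red and all genes, receptors included, in grey, replicate 1 in the darker shade and replicate 2 in the paler. Error bars are 95% Wilson intervals of counting error. Exon shares of 32.8 and 37.4% for receptor genes stand above 24.3 and 25.7% for all genes, and intron shares of 8.03 and 7.10% stand below 18.5 and 17.9%.

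Of the 103 exon peaks of both lists together, 41 lay in the first exon (39.8%, against 40.8% of all exon peaks). In the last exon lay 25 (24.3% against 39.8%). An exon of a gene other than the assigned one held 5 (4.85% against 6.9998%). Of the 22 intron peaks of both lists together, 16 lay in the first intron (72.7%, against 43.6% of all intron peaks). Of these 22, 14 overlapped a peak of the same gene in the other list, so many sites count once in each list. Within 500 bp inside the gene start were 22 receptor peaks in replicate 1 and 24 in replicate 2, which is 16.1 and 15.5% against 18.6 and 18.4% of all peaks. More than 2 kb and up to 5 kb upstream of the start were 22 and 20, or 16.1 and 12.9%, against 8.90 and 8.94% of all peaks. Receptor peaks in promoters overlapped a peak of the same gene in the other list in 45 of 69 cases (65.2%, against 64.0% of all promoter peaks). For intergenic positions it was 48 of 74 (64.9% against 63.3%), and for exons 55 of 103 (53.4% against 68.6%). These differences were not tested.

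A promoter peak, with a deposited distance of 2 kb or less upstream of the gene start, was present in both replicates for 22 of 144 receptor genes (15.3%, Wilson interval 10.3 to 22.0), beside 13.7% of all genes with a peak. The promoter peaks of the lists overlapped in 21 of them. The exception was FvH4_3g45641 (At4g27190), named after its values were seen, where the peaks lay apart at 1631 and 1045 bp upstream. By name, 7 were At4g27220, 6 At4g27190, 3 At5g66900 and 2 RPM1, with 1 each for At1g50180, At4g11170, At5g63020 and RGA4. No RPP13 gene was among them. By the best ranked overlapping pair of each of these 21 genes, 13 had both peaks within 1 kb and 7 had both beyond 1 kb. Counting any promoter peak, 14 of the 22 genes had one within 1 kb in both lists.

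After FvH4_3g45642, FvH4_4g22940 and FvH4_5g11231, the next promoter was that of FvH4_7g20580, named RGA4. Its upstream region held peaks in replicate 1 at 703 and 1282 bp with 3.002 and 4.30, and in replicate 2 a single long peak spanned both positions with 3.46. FvH4_2g27370, named At4g11170, had 3.43 in replicate 1 and 3.69 in replicate 2 at 552 and 607 bp upstream. FvH4_2g36810, named At4g27190, had 3.65 and 3.14 at 458 and 452 bp upstream. FvH4_1g18160, the only gene named At5g63020, was bound almost at its start, 47 and 83 bp upstream, at 3.15 and 3.32. In 10 of the 22 genes the promoter peaks of both lists reached 3, including FvH4_3g11504 (RPM1), FvH4_3g44060 and FvH4_3g43660 (At4g27220). The others with overlapping promoter peaks had lower values in at least 1 list. Among them were FvH4_1g15240 and FvH4_1g15120 (At5g66900), FvH4_2g05721, FvH4_2g17410 and FvH4_2g36830 (At4g27190), and FvH4_3g43860, FvH4_3g43890, FvH4_3g43630 and FvH4_1g02750 (At4g27220). In the authors' merged list, FvH4_3g45642, FvH4_7g20580, FvH4_1g18160, FvH4_1g15240 and FvH4_3g45641 had no promoter peak.

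The bound receptor genes were unevenly spread over the 7 chromosomes. Chromosome 3 held 43 of 144 (29.9%), against 16.4% of all genes with a peak, and 91 of the 292 receptor peaks. Chromosome 7 held 24 (16.7% against 11.3%). Chromosome 4 held 10 (6.94% against 14.3%). Chromosome 1 held 19 (13.2% against 11.1%) and chromosome 6 held 20 (13.9% against 18.6%). Chromosomes 2 and 5 held 14 each (9.72%, against 14.0% of all genes on either). How many receptor genes each chromosome has in all was not analysed here, so these counts do not separate gene number from binding.

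A cluster was defined as at least 3 receptor genes on a chromosome whose neighbouring peaks lay no more than 200 kb apart. There were 11 clusters with 70 of the 144 genes (48.6%). No share of other genes under the same rule stands beside this one, and receptor genes without a peak were not analysed. The count therefore does not separate the placing of the genes from binding. Within clusters 37 of 70 genes had overlapping peaks in both replicates (52.9%), and outside clusters 37 of 74 (50%), beside 58.6% of all genes with a peak. The counts of genes bound in both for single clusters below are small and are to be read beside that 58.6%. The median fold enrichment in clusters was 2.98 in replicate 1 and 2.87 in replicate 2, against 3.01 and 3.02 outside. A single name covered all genes in 5 of the 11 clusters. When only genes with overlapping peaks were used, 4 clusters with 25 genes were left.

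The largest cluster lay on chromosome 3 from 36187128 to 36769941, a span of 583 kb, with 16 genes, 15 named At4g27220 and 1 At4g27190. They carried 40 of the 120 peaks in that span, and 11 of the 16 genes were bound in both replicates. FvH4_3g43950 and FvH4_3g43860 had most peaks, 6 each over both lists. FvH4_3g43860 was bound at 3 places in each replicate, in exon 2 of 4 and, in replicate 1, at 1646 and 2734 bp upstream, with 2.41, 3.49 and 3.19 in replicate 1 and 2.81, 2.73 and 3.12 in replicate 2. FvH4_3g43960, the gene named At4g27190 and chosen after its values were seen, was bound near its start and in its last exon in both lists. In fold enrichment the peaks of this cluster were modest, with medians of 2.97 in replicate 1 and 2.71 in replicate 2. With neighbouring peaks no more than 50 kb apart the largest cluster held 10 genes, and with 500 kb it held 30. At 500 kb it took in the third cluster described below, so their separation depends on the gap chosen.

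The second lay on chromosome 1 from 8562088 to 8733096 (171 kb) and held 11 helper-type genes, 10 named At5g66900 and 1 named At5g66910. They carried 22 of the 36 peaks in the span. Here 6 of the 11 genes were bound in both replicates, at medians over all peaks of 3.28 and 2.97. In 4 genes chosen after their values were seen, peaks lay near the gene start. FvH4_1g15130, FvH4_1g15140 and FvH4_1g15200 were each bound in exon 1 in both lists, within 500 bp of the start, and FvH4_1g15171 in its 5' UTR. Their values were 2.95 in replicate 1 and 3.54 in replicate 2 for FvH4_1g15130, 3.34 and 2.47 for FvH4_1g15140, 3.67 and 2.97 for FvH4_1g15200, and 2.80 and 2.43 for FvH4_1g15171. FvH4_1g15120 had most peaks, 5, in its promoter, intron 3 and exon 4.

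The third cluster, also on chromosome 3, ran from 37811183 to 37937030 (126 kb) with 8 genes named At4g27220 and 1 named At4g27190. They carried 23 of the 34 peaks there, and 5 of the 9 genes were bound in both replicates. It held the best ranked reproducible peaks, at FvH4_3g45642 and FvH4_3g45680, and the highest single peak, at FvH4_3g45711 in replicate 2. FvH4_3g45690 had most peaks with 6, of which only those 5250 and 5525 bp upstream (2.10 in replicate 1 and 2.12 in replicate 2) and in the 3' UTR (2.99 and 2.34) were found in both lists. The fourth cluster, on chromosome 7 from 20460251 to 21036416 (576 kb), mixed 4 genes named At3g14460 with 3 named RPP13-like protein 1. They carried 12 of the 118 peaks in the span, and 2 of the 7 genes were bound in both replicates. Smaller clusters on chromosome 3 from 6751680 to 6801659 and on chromosome 5 from 14742272 to 14798035 held only RPM1 names, 6 and 4 genes. Clusters on chromosome 2 from 26895012 to 26921086 and from 15008934 to 15013192 held only At4g27190 names, 5 and 3 genes. No peak of another gene lay in either span. In the span with 3 genes, overlapping peaks were assigned to FvH4_2g17410 in replicate 1 and to FvH4_2g17400 in replicate 2. The latter gene, chosen after its values were seen, had only that 1 peak, so the count of 3 depends on the assignment.

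**Figure D4:**
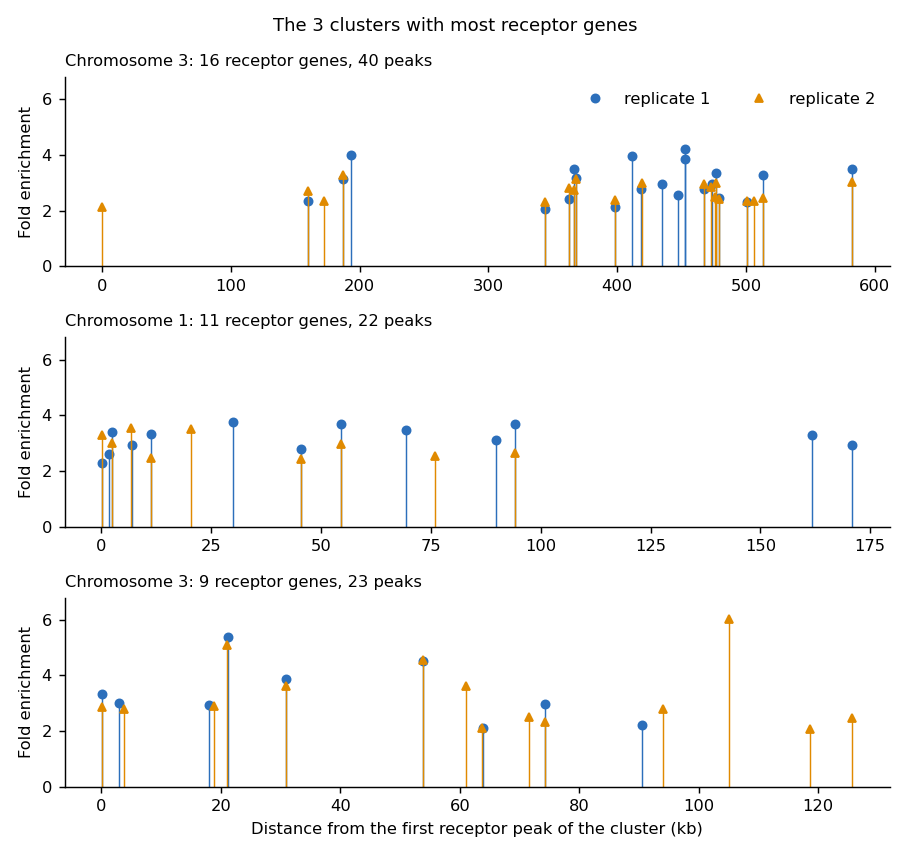
Fold enrichment (vertical axis) of receptor peaks in the 3 clusters with most receptor genes, against distance from the first receptor peak of the cluster in kb (horizontal axis). Blue circles are replicate 1 peaks and orange triangles replicate 2 peaks. The first and second clusters stay below 4.3, and the third reaches 5.37 in replicate 1 and 6.03 in replicate 2.

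Outside the clusters, the genes with most peaks were FvH4_2g05721, named At4g27190, and FvH4_6g29520, named RGA4, with 6 each. FvH4_2g05721 was bound at the same 3 places in both lists, at 2 positions in its promoter and 1 in exon 2 of 2, with values of 2.72 to 2.93 in replicate 1 and 2.62 to 3.08 in replicate 2. FvH4_6g29520 had 5 peaks in replicate 2 and 1 in replicate 1, and only the peak 6068 bp downstream of its start, 5804 bp in replicate 2, was shared.

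The largest cluster differed from other receptor genes in how fold enrichment related to the −log10 p of its peaks. A peak caller's p-value depends on the amount of signal as well as the ratio, so peaks of equal fold can differ in −log10 p. Each −log10 p was divided by the median of all peaks of the same list in the same step of 0.25 in fold enrichment, and ratios of at least 1.5 were counted, a limit chosen after the values were seen. Such peaks made up 12 of 137 receptor peaks in replicate 1 (8.76%, beside 1.72% of all peaks) and 18 of 155 in replicate 2 (11.6%, beside 1.59%). Of these 30 peaks, 20 lay in the largest cluster. There they were 20 of 40 receptor peaks, against 4 of 80 peaks of other genes in the same span. By list they were 9 of 21 receptor peaks in replicate 1 and 11 of 19 in replicate 2. A site found in both lists counts once in each, so the pooled peaks are not independent. The highest ratio, 2.31, was at FvH4_3g43991 (At4g27220), chosen after its values were seen, with a fold enrichment of 2.37 and a −log10 p of 17.1 in replicate 2. In replicate 1 that gene had 2.30 and 14.8. Outside this cluster, FvH4_5g11231 had ratios of 2.14 in replicate 1 and 2.16 in replicate 2, and FvH4_3g45643 had 2.14 and 2.07. The chromosome 1 cluster of helper-type genes had none among its 22 peaks. The part that depth or read placement plays in these ratios was not tested.

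**Figure D5:**
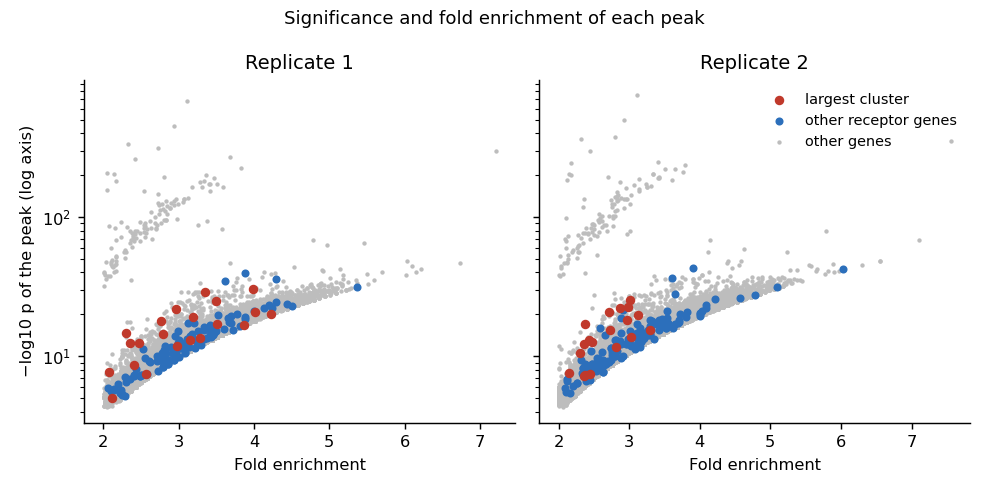
The −log10 p of each peak (vertical axis, log scale) against its fold enrichment (horizontal axis), for replicate 1 on the left and replicate 2 on the right. Red points are receptor peaks of the largest cluster, blue points the other receptor peaks and grey points peaks of other genes. Many red points lie above the main band at the same fold enrichment, such as FvH4_3g43991 at 2.37 and 17.1 in replicate 2, and some grey points lie higher still.

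Other immune genes with a peak were counted in the same way. TMV resistance protein N, a receptor with a Toll-like domain that was left out by the words used here, was named by 73 genes, of which 42 (57.5%) had overlapping peaks in both replicates and 10 a promoter peak in both. The median fold enrichment of their peaks was 3.03 in replicate 1 and 3.001 in replicate 2. A further 14 genes carried the words disease resistance, with 8 bound in both, but 7 of these 14 were named ENHANCED DISEASE RESISTANCE 2, which is not a receptor of this family. Of the EDS1 and SAG101 names, lipase-like proteins that act between Toll-type receptors and the helpers, 2 of 4 were bound in both. These were the EDS1B-like FvH4_5g16230, in an exon at 3.96 in replicate 1 and 3.74 in replicate 2, and FvH4_6g50162, also in an exon, at 3.43 and 3.54. RIN4 and NDR1, membrane proteins that several receptors guard or need, gave 4 of 7, including the RIN4 gene FvH4_2g18650 with a promoter peak at 3.38 and 2.63. The chaperone group of SGT1, RAR1 and HSP90, which keeps receptors stable, gave 3 of 5 by its words. Among the 5, FvH4_1g19610 is named SGT1 homolog At5g65490, a different protein that shares the name. It had 1 peak in each list, and these did not overlap. Pathogenesis-related, thaumatin and NPR-type names, none of them NPR1 itself, gave 13 of 18. The same words also caught 4 genes named SUPPRESSOR OF npr1-1, CONSTITUTIVE 1, in Arabidopsis a Toll-type receptor, of which 2 were bound in both. The share for all genes with a peak was 58.6%.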

How the data were processed

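The 3 deposited tables used were a peak list for each FvSEP3 IP replicate and a merged list. The tools were BWA and MACS2, per the submitters' processing notes. Their versions and settings, the genome build and the use of the input in calling are not given in the sources used here. Each replicate has its own list, as the file headers say. Each peak carries a fold enrichment (a ratio of signal to background) and −log10 p-values and −log10 q-values, as deposited by the authors. The merged list gives the authors' means. In neither list did fold enrichment lie below 2 or −log10 q below 3 (0 peaks each). Location class, assigned gene and distance to the gene start are the authors' deposited annotation. No further filter was applied.

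Members were found by words in the descriptions, ignoring case. Members, lists and tests were chosen with earlier results of these data known. Named genes were the 15 ranked best, by mean rank over both lists, for an overlapping peak, up to 20 with a promoter peak in both lists, those with most peaks in each of the 3 largest clusters, the 5 with most peaks of all, and the 2 best of each of the RGA, RPM1, RPP13 and At-locus names. Any other receptor gene is marked as chosen after its values were seen, and so were the single genes named among the other immune genes. With 2 replicates and no counts, no test was run. Intervals are 95% Wilson intervals of counting error, and mean ± SD over 2 lists describes the deposited values. Of the 144 genes, 66 matched the RefSeq table of assembly FraVesHawaii_1.0 by protein accession; its positions were not used. The software was Python 3.11.15 with scipy 1.17.1 and pandas 2.3.3, and overlap and cluster code was tested on simulated data. The alternatives were stricter peaks and overlaps, the merged list, single replicates, other promoter lengths and cluster gaps, and a wider word rule.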

Additional observations from a re-analysis of the deposited data

How the results depend on the processing

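The count of 74 receptor genes bound in both replicates fell to 25 among peaks at or above the median fold enrichment of their list and to 33 at a −log10 q of at least 10, and any peak in 1 replicate gave 108 to 119 genes. The 22 genes with a promoter peak in both became 14 with a 1 kb promoter, 10 among peaks at or above the median fold enrichment and 13 at a −log10 q of at least 10, and 30 to 35 on 1 replicate. The 11 clusters became 4 when only genes with overlapping peaks were used, and 8 to 10 on 1 replicate. Among peaks at or above the median fold enrichment, the pooled share in exons went to 31.9% (main value 35.3%), in introns to 6.67% (7.53%) and in promoters to 28.1% (23.6%). The intron share was also 5.88% at a −log10 q of at least 10, 9.30% in the merged list and, in an alternative chosen after seeing the data, 8.73% without the largest cluster. The median percentile of receptor peaks within their list, 45.2 by fold enrichment, was 54.8 when ranked by −log10 p, and 42.7 to 46.2 on 1 replicate. Of all alternatives for these results, 32 values moved by no more than 1.5 times (counts) or 1 SD between the lists (shares and percentiles). Another 16 moved further. The 32 include some values given above, namely 108 genes, 30 genes with a promoter peak, 8 and 10 clusters and the percentile of 46.2. Of the 15 best ranked genes, FvH4_3g45642, FvH4_5g11130 and FvH4_7g20580 were not kept with reciprocal overlap of 50%, and these and FvH4_3g45643 and FvH4_2g05590 were not kept with midpoints within 100 bp. FvH4_3g45642 and FvH4_7g20580 were not in the merged list. No paired analysis was possible because only the IP group has more than 1 sample and no test was run.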
